A study of Mus musculus with 20 samples.

Results

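The 5 entries described here are the mouse miRNAs miR-1291, miR-664-5p, miR-664-3p, miR-1839-5p and miR-1839-3p, out of 1481 features measured. They were chosen by name, as miRNAs that are cut from, or overlap, small nucleolar RNAs (snoRNAs) of the H/ACA class, and because miR-1291 is higher after oxygen-glucose deprivation (OGD). Small RNA was sequenced from primary neurons of mouse cortex, taken at embryonic day 15 and cultured for 7 days. All mice carried the strain label C57BL/6N-Cdr1asem1Nikr, and the labels separate wild-type neurons from knockout neurons that lack ciRS-7 (Cdr1as), a circular RNA of the brain. Each genotype was kept for 12 h in normoxia (5% CO2, 37 °C, 25 mM glucose, 0.2 mM pyruvate) or in OGD (1% O2 with 5% CO2 at 37 °C, in medium without glucose and pyruvate supplements), a model of ischaemia in a dish. The 4 groups were therefore normoxic wild type, OGD wild type, normoxic knockout and OGD knockout, with 5 libraries each. The genotype was taken from the labels, and ciRS-7 itself was not analysed here. The labels number the libraries of a group but do not say whether they came from separate embryos, so the p-values measure the spread between these libraries, which may be partly technical.

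H/ACA snoRNAs fold into a pair of hairpins joined by a hinge, and they end with the letters ACA followed by a short tail. With dyskerin and its partner proteins they guide the conversion of uridine to pseudouridine in ribosomal RNA, and their close relatives, the scaRNAs, do so for spliceosomal RNAs in Cajal bodies. Some of them are also cut into fragments of miRNA size that bind Argonaute, the protein that carries miRNAs to their targets. This cutting is known to need Dicer but not the Drosha and DGCR8 complex that releases ordinary miRNA hairpins.

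The mature sequences are shown first because miR-1291 differs from the others in its place in the snoRNA. They come from RefSeq (GRCm38.p6), which matched 4 of the 5 entries, and capitals mark the seed (bases 2 to 8), the stretch that pairs with a target.
mmu-miR-1291: aUGGCUCUuacugaagacuagcaguu
mmu-miR-664-5p: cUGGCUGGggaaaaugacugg
mmu-miR-664-3p: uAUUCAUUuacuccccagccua
mmu-miR-1839-5p: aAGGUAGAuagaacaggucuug
The 4 seeds differ from each other, and none was shared with any other mature entry of the same table. The miR-1291 entry is 26 bases long, against 21 for miR-664-5p and 22 for miR-664-3p and miR-1839-5p.

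Each precursor overlaps 1 annotated snoRNA or scaRNA gene on the same strand. The miR-1291 hairpin (chr15:98519762-98519878, minus strand, GRCm38) shares 92 bases with Snora34, which lies in an intron of Kansl2, a gene for a subunit of a histone acetyltransferase complex. The miR-664 hairpin (chr1:185242975-185243043, plus strand) shares 64 bases with Snora36b, in an intron of Rab3gap2, a gene for a subunit of the regulator of the small GTPase Rab3. The miR-1839 hairpin (chr7:81529916-81529988, plus strand) shares 66 bases with a scaRNA gene that is itself named Mir1839, where it overlaps an exon of 2900076A07Rik, a long noncoding RNA. The snoRNA and scaRNA sequences below are from the GENCODE M21 transcripts, and capitals mark the mature entries.
Snora34: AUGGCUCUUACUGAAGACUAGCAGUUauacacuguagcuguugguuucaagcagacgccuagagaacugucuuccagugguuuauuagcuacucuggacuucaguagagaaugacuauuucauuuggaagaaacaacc
Snora36b: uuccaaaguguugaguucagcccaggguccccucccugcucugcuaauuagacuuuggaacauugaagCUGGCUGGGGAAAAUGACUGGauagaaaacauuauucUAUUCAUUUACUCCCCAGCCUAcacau
Mir1839 scaRNA: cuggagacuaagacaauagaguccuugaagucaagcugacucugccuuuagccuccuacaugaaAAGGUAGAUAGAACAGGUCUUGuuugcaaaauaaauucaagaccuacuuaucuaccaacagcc
All 3 end in ACANNN, the letters of the ACA box, as do 19.3% of the 1558 annotated snoRNA and scaRNA transcripts and 25.5% of the 1041 that are 100 to 160 bases long. The search used the RNA strand only, and a match of these letters is a description of the sequence. The letters ANANNA, those of the hinge box H, occur in all 3, but also in 93.8% of the transcripts of that length. In Snora36b the matches start at bases 80 to 97, all inside the annotated miR-664 hairpin, and the search found none before it.

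The entries lie in different parts of these RNAs. The miR-1291 entry covers bases 1 to 26 of the 138 bases of Snora34, so that its first base is also the first base of the snoRNA. The miR-664 arms lie at bases 69 to 89 and 106 to 127 of the 132 bases of Snora36b, and the 3p arm ends 5 bases before the end of the snoRNA. The miR-1839-5p entry covers bases 65 to 86 of the 127 bases of its scaRNA. The miR-1291, miR-664-5p, miR-664-3p and miR-1839-5p entries each match a stretch of their snoRNA or scaRNA letter for letter. Reads of these entries therefore cannot be told apart from fragments of that RNA by sequence.

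**Figure D1:**
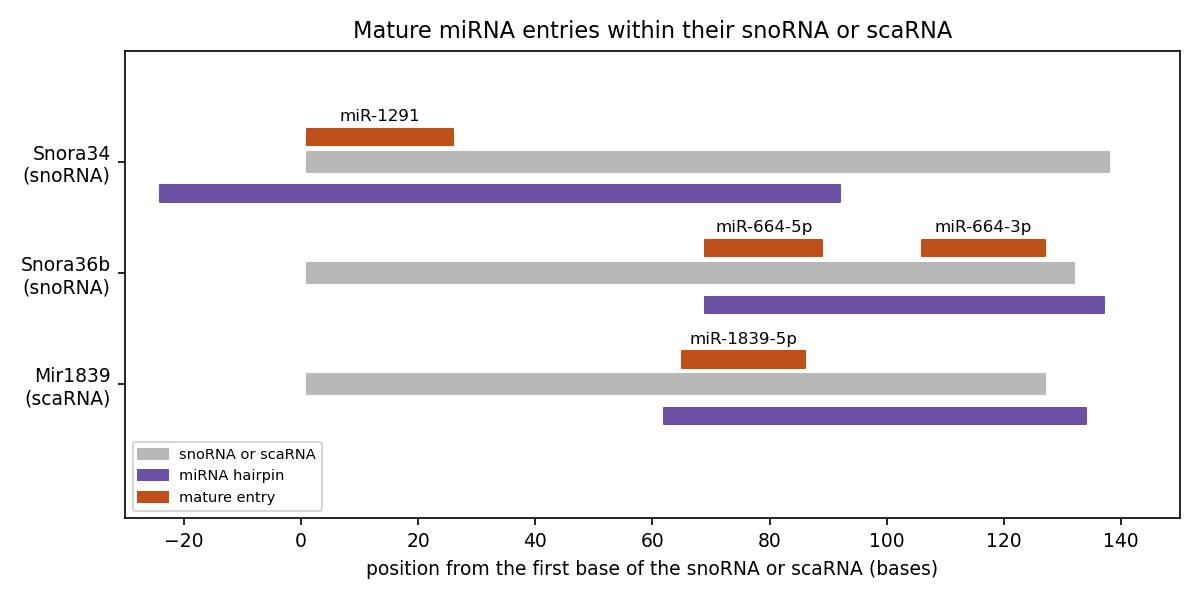
Place of the mature entries (orange) and of the annotated miRNA hairpins (purple) along their snoRNA or scaRNA (grey), in bases from its first base. The miR-1291 entry starts at base 1 of Snora34, whereas miR-664-5p starts at base 69 of Snora36b and miR-1839-5p at base 65 of its scaRNA.

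The libraries held 1160582 to 12477032 reads, and the OGD libraries were shallower (1160582 to 4374002) than most normoxic ones (2492065 to 12477032). Levels are given as CPM, the reads scaled to a common library total, in which a floor of 3 reads corresponds to 0.249 to 2.55 CPM. The neuronal markers miR-124-3p, miR-9-5p, miR-128-3p, miR-138-5p and miR-218-5p summed to 292320 to 389307 CPM, most of it miR-9-5p. Single markers moved with OGD, in wild-type means from 3392 to 5628 CPM for miR-124-3p, from 233 to 454 for miR-138-5p and from 60839 to 40381 for miR-128-3p, and their part in the results was not tested. The oligodendrocyte markers miR-219a-2-3p and miR-338-3p summed to 5.29 to 14.0 CPM, the microglial and blood markers miR-142a-3p and miR-223-3p to 0 to 3.59 CPM, and the vessel markers miR-126a-3p, miR-143-3p and miR-145a-5p to 288 to 431 CPM. The liver miRNA miR-122-5p was read at 38.1 to 64.5 CPM in every library, a level above that of miR-664 and of miR-1291 throughout, and the source of these reads was not tested. Normoxic wild-type replicate 5 stood apart from its group (miR-3535, described below, was at 602 CPM there), and several values are also given without it.

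The most abundant entry was miR-1839-5p, and miR-1839-3p came next in each group. The 4 entries with a sequence are 21 to 26 bases long, and CPM are compared between entries without a scaling for length. In normoxic wild-type libraries the means were 1199 CPM for miR-1839-5p, 32.2 for miR-1839-3p, 3.98 for miR-664-5p, 2.72 for miR-664-3p and 1.67 for miR-1291. The libraries of miR-664-5p and miR-664-3p overlapped, as did those of miR-664-3p and miR-1291, so the order within each of these pairs lies within the spread. Within every normoxic wild-type library, however, miR-664-5p lay above miR-1291. After OGD miR-1291 (14.6 to 19.2 CPM in wild type, 16.0 to 28.7 in knockout) lay above every miR-664 value (2.55 to 11.9 and 1.67 to 5.15) and below every miR-1839-3p value (45.0 to 68.8 and 42.4 to 67.8).

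miR-1291, the entry that covers the 5′ end of Snora34, was read at about 10 times its normoxic level after OGD, in wild-type and in knockout neurons. In normoxic wild-type replicates 1 to 5 its level was 1.90, 1.00, 1.11, 1.70 and 2.64 CPM. In OGD wild-type replicates 1 to 5 it was 19.2, 16.5, 17.8, 18.8 and 14.6 CPM. The lowest OGD library was thus far above the highest normoxic library, which was replicate 5. In knockout replicates 1 to 5 the level was 1.83, 3.70, 1.71, 3.08 and 0.89 CPM in normoxia. After OGD the knockout replicates stood at 22.1, 17.6, 28.7, 16.0 and 20.1 CPM. Again no OGD library overlapped the normoxic ones. The means were 1.67 ± 0.66 and 17.4 ± 1.88 CPM in wild type and 2.24 ± 1.13 and 20.9 ± 4.96 CPM in knockout (SD, n = 5), which are ratios of 10.4 and 9.32. On the log2(CPM + 0.5) scale, which understates the change of rare features, the difference was 3.09 (SE 0.25) in wild type and 3.04 (SE 0.27) in knockout. These differences placed miR-1291 at 27 of 1478 features in wild type and 11 of 1479 in knockout, counted from the largest rise.

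The counts behind these levels were small. Normoxic wild-type libraries held 7 to 16 reads of miR-1291 and normoxic knockout libraries 8 to 33. The OGD libraries held 21 to 78 reads in wild type and 36 to 72 in knockout. So the reads themselves did not overlap between OGD and normoxia in either genotype, although most OGD libraries were shallower than the normoxic ones. Without normoxic wild-type replicate 5 the wild-type difference was 3.23 (log2). The OGD contrast was part of the choice of the entries, so these values are a description and carry no test.

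The 3p arm of miR-1839 was also higher after OGD in every library. In normoxic wild-type replicates 1 to 5 the level of miR-1839-3p was 37.8, 28.9, 34.3, 32.1 and 28.0 CPM. After OGD the wild-type values were 68.8, 45.0, 62.9, 53.5 and 50.2 CPM. The lowest of them lay above the highest normoxic value. In knockout replicates 1 to 5 the level was 33.9, 36.2, 34.3, 30.8 and 29.0 CPM in normoxia and 66.7, 53.3, 67.8, 42.4 and 55.2 CPM after OGD, again without overlap. The ratio of the means was 1.74 in each genotype. The log2 difference was 0.78 (SE 0.16) in wild type and 0.77 (SE 0.14) in knockout.

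The 5p arm of the same precursor, miR-1839-5p, differed much less. Its level in normoxic wild-type replicates 1 to 5 was 1277, 1160.0, 1247, 1295 and 1019 CPM. After OGD the wild-type values were 1404, 1233, 1677, 1469 and 1261 CPM. These groups overlapped, and 3 of the 5 OGD libraries lay above all normoxic ones. In knockout replicates 1 to 5 it was 1225, 1129, 1067, 1221 and 1206 CPM in normoxia and 1521, 1324, 1549, 1375 and 1434 CPM after OGD, without overlap. The log2 difference was 0.23 (SE 0.11) in wild type and 0.30 (SE 0.08) in knockout. Its direction depended on the scaling of the libraries. With quantile normalization miR-1839-5p was still higher after OGD, by 0.13 in wild type and 0.16 in knockout. Centring each library on its median moved OGD against normoxia by 0.56 (log2) in wild type and 0.49 in knockout, and relative to that shift miR-1839-5p was lower by 0.33 and 0.19. Relative to the same shift miR-1839-3p stood at 0.22 and 0.28, within about 2 SE of 0, and miR-1291 at 2.53 and 2.55.

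Both miR-664 arms were rare and scattered. The level of miR-664-5p in normoxic wild-type replicates 1 to 5 was 4.04, 2.50, 4.46, 3.59 and 5.29 CPM, and after OGD it was 3.19, 4.42, 11.9, 3.48 and 9.54 CPM. The means of 3.98 ± 1.04 and 6.50 ± 3.96 CPM (SD, n = 5) were set apart by replicates 3 and 5 of the OGD group, and the other 3 OGD libraries lay within the normoxic range. In knockout replicates 1 to 5 it was 4.32, 3.47, 2.56, 2.52 and 2.11 CPM in normoxia and 4.23, 5.15, 2.39, 3.82 and 1.67 CPM after OGD, ranges that overlapped. The level of miR-664-3p in wild-type replicates 1 to 5 was 3.33, 3.25, 2.48, 3.40 and 1.13 CPM in normoxia and 4.18, 3.62, 2.55, 5.56 and 5.02 CPM after OGD. In knockout replicates 1 to 5 it was 3.66, 3.12, 4.43, 2.52 and 3.34 CPM in normoxia and 4.23, 5.15, 3.99, 4.17 and 3.34 CPM after OGD. These groups overlapped in each genotype. The lowest counts were 3 reads in a library, and for miR-664-3p in normoxic wild-type replicate 5 these 3 reads give 1.13 CPM with an exact Poisson 95% interval of 0.234 to 3.31 CPM, for counting error only. The log2 differences after OGD were 0.50 (SE 0.34) and 0.13 (SE 0.29) for miR-664-5p in wild type and knockout, and 0.57 (SE 0.32) and 0.26 (SE 0.22) for miR-664-3p. The wild-type difference of miR-664-3p was 0.34 without normoxic replicate 5, and that of miR-664-5p was 0.25 without OGD replicate 3 and 0.32 without OGD replicate 5. In knockout the miR-664-5p difference ran from -0.02 to 0.33 when each library was left out. Relative to the centring shift, miR-664-3p stood at 0.01 in wild type and -0.23 in knockout, and miR-664-5p at -0.06 and -0.36.

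**Figure D2:**
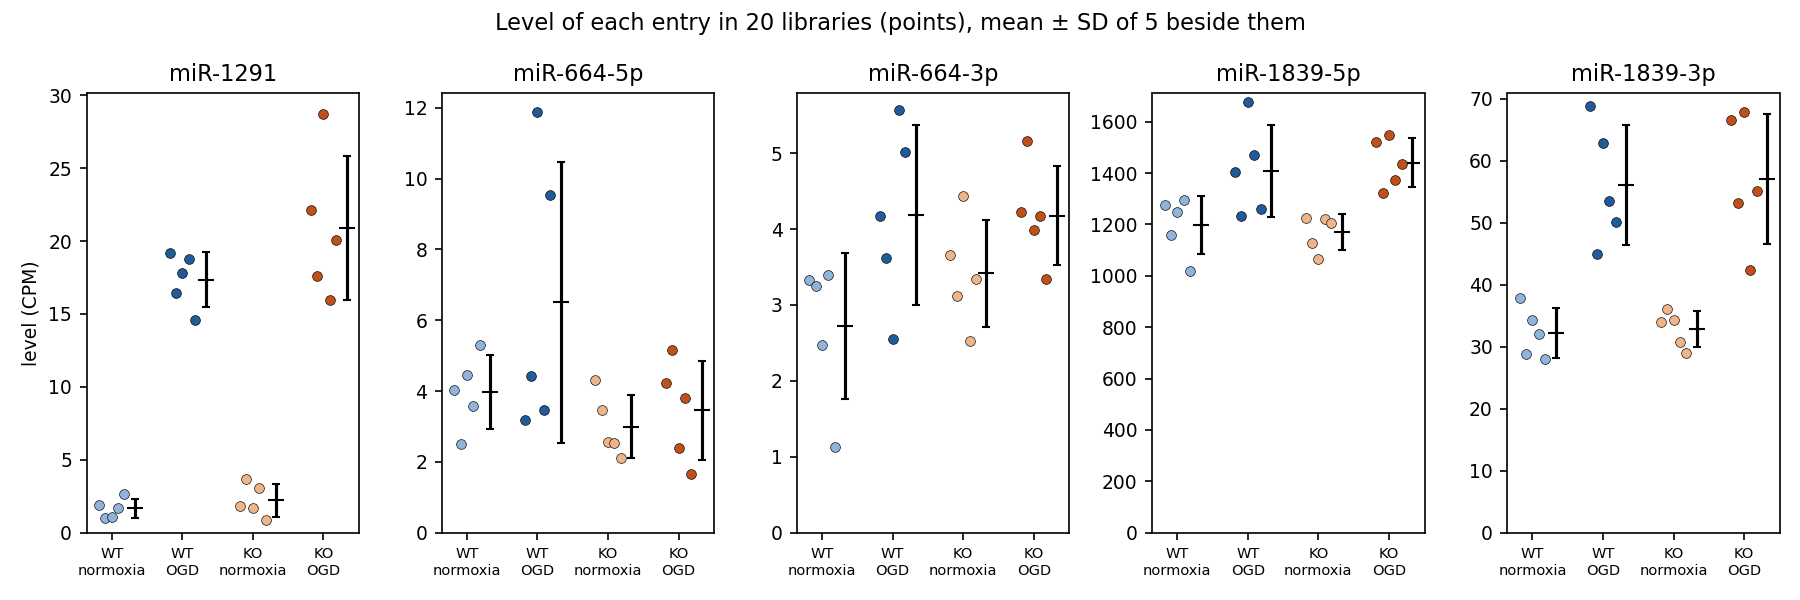
Level (CPM) of each entry in 20 libraries (points, replicates 1 to 5 from left to right) with the mean ± SD of each group of 5. For miR-1291 the OGD libraries lie between 14.6 and 28.7 CPM and the normoxic ones between 0.89 and 3.70 CPM. For miR-1839-5p the rise seen on this scale turns to a fall when each library is centred on its median, but not with quantile normalization.

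Past the threshold of the fit over all features (limma, adjusted p under 0.05, Benjamini-Hochberg) lay 2 of the 5 entries in wild type, miR-1291 and miR-1839-3p, where 23.1% of 1478 features were called (18.7% higher and 4.4% lower). In knockout 3 of the 5 passed, with miR-1839-5p added, where 24.5% of 1479 features were called (18.8% higher and 5.75% lower). OGD libraries lay above normoxic ones without overlap for 2 of 5 entries in wild type (13.5% of all features, and 2.57% lay below) and for 3 of 5 in knockout (15.3%, and 3.79% below). With centring miR-1839-3p no longer passed in either genotype, and miR-1839-5p passed as lower in wild type and did not pass in knockout. With centring 25.3% of all features were called in wild type (108 higher and 266 lower) and 28.3% in knockout (114 and 305). With quantile normalization miR-1291 alone of the 5 passed, in each genotype, where 9.54% of features were called higher and 12.9% lower in wild type, and 9.53% and 12.6% in knockout. With thinning to the shallowest library miR-1839-3p did not pass in wild type, where 17.2% of features were called. Limma voom on the reads called 2 and 3 of the 5, among 46.9% of features in wild type and 53.0% in knockout. Nothing is read from these counts, since the OGD contrast helped to choose the entries. Of the 5 entries, 2 (the miR-1839 arms) had a mean log2(CPM + 0.5) of at least 3 over the 20 libraries. The comparisons of the genotypes within OGD and normoxia share libraries with the OGD contrasts.

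The balance of the miR-1839 arms moved towards 3p after OGD. The library total cancels in a ratio of arms from 1 library, except for the 0.5 CPM added to each arm, which bears on the rare miR-664 arms. The log2 ratio of 5p over 3p in normoxic wild-type replicates 1 to 5 was 5.06, 5.30, 5.16, 5.31 and 5.16. After OGD the wild-type ratios were 4.34, 4.76, 4.73, 4.76 and 4.64, all below the normoxic ones, with a difference of means of -0.55. In knockout replicates 1 to 5 the log2 ratio was 5.15, 4.95, 4.94, 5.28 and 5.35 in normoxia and 4.50, 4.62, 4.50, 5.00 and 4.69 after OGD. The knockout means differed by -0.47, and the groups overlapped through OGD replicate 4. The 3p arm thus made up 2.61% ± 0.19 of miR-1839 reads in wild-type neurons in normoxia and 3.83% ± 0.49 after OGD, and 2.75% ± 0.35 and 3.79% ± 0.50 in knockout neurons (SD, n = 5). These are descriptions, without a test.

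The arms of miR-664 were nearly equal. The 3p arm took 40.7% ± 14.9 of miR-664 reads in wild-type neurons in normoxia and 43.1% ± 17.7 after OGD, and 53.6% ± 8.16 and 56.3% ± 7.78 in knockout neurons (SD, n = 5). The question of whether loss of ciRS-7 shifts the arms was tested for both precursors, with 4 exact permutation tests (two-sided, 5 against 5 libraries, smallest possible p 0.00794). For miR-664 the mean log2 ratio was -0.18 ± 0.41 in knockout and 0.51 ± 0.83 in wild type in normoxia, a difference of -0.69 (exact p = 0.111, Benjamini-Hochberg adjusted p = 0.349). Without normoxic wild-type replicate 5, whose ratio of 1.83 was the highest of its group and rested on 3 reads of the 3p arm, the difference was -0.36. After OGD the miR-664 difference was -0.75 (exact p = 0.175, adjusted p = 0.349), and it was -0.36 without OGD wild-type replicate 3, which also held 3 reads of the 3p arm. For miR-1839 the genotypes differed by -0.07 in normoxia (exact p = 0.54, adjusted p = 0.72) and by 0.02 after OGD (exact p = 0.881, adjusted p = 0.881). None of the 4 differences passed the test.

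**Figure D3:**
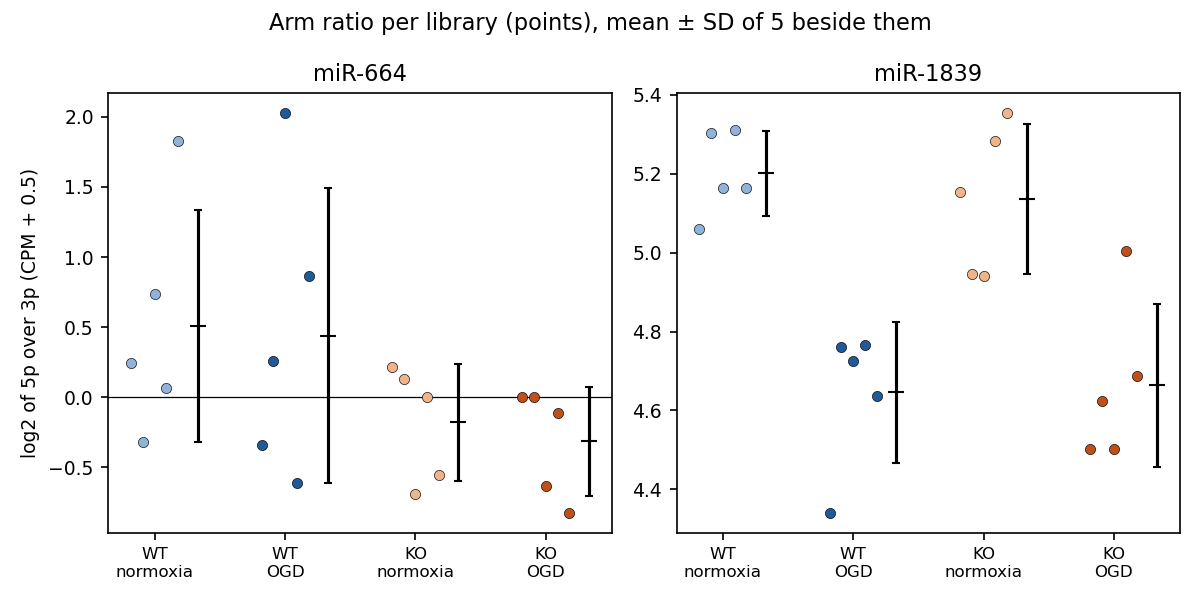
Log2 ratio of the 5p over the 3p arm, from CPM + 0.5, in each library (points, replicates 1 to 5 from left to right) with the mean ± SD of 5. The miR-1839 ratio falls from 5.20 to 4.65 in wild type after OGD, and the wild-type miR-664 ratios spread from -0.61 to 2.02.

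Loss of ciRS-7 was compared next within each condition, a contrast that played no role in the choice of the entries. In normoxia 0 of the 5 entries passed (limma, adjusted p under 0.05), and 0% of 1481 features did. There, 47 features had an unadjusted p under 0.05, 0 of them among the 5 entries. Limma voom on the reads also called 0 features. For miR-1291 knockout minus wild type was 0.28 (log2, 95% interval -0.41 to 0.97, limma adjusted p = 0.984). It was 0.10 without normoxic knockout replicate 2, 0.50 without normoxic knockout replicate 5, 0.43 without normoxic wild-type replicate 5 and 0.16 without normoxic wild-type replicate 2 or knockout replicate 4. With thinning to the shallowest library the miR-1291 difference was -0.60, outside its 95% interval. The intervals were -0.86 to 0.14 for miR-664-5p, with a difference of -0.36, and -0.23 to 0.89 for miR-664-3p, with a difference of 0.33, which was 0.10 without normoxic wild-type replicate 5. The miR-1839 arms were the most precisely measured, with -0.03 (-0.21 to 0.15) for 5p, which was -0.09 without normoxic wild-type replicate 5, and 0.03 (-0.22 to 0.28) for 3p.

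After OGD 0 of the 5 entries passed as well, among 0% of 1481 features, with 108 features at an unadjusted p under 0.05, none of them an entry described here, and 0 calls by limma voom. miR-1291 differed by 0.24 (-0.16 to 0.64), with a limma adjusted p of 0.858, and by 0.12 without OGD knockout replicate 3. The widest difference was that of miR-664-5p, at -0.73 (-1.47 to 0.02, limma adjusted p = 0.673). Its level was 3.45 ± 1.41 CPM in knockout and 6.50 ± 3.96 CPM in wild type (SD, n = 5). The difference was -0.48 without OGD wild-type replicate 3, -0.55 without OGD wild-type replicate 5 and -0.53 without OGD knockout replicate 5, which held 3 reads. The differences were 0.03 (-0.61 to 0.66) for miR-664-3p, 0.04 (-0.16 to 0.24) for miR-1839-5p and 0.02 (-0.31 to 0.35) for miR-1839-3p. Knockout and wild-type libraries overlapped for all 5 entries in either condition. Features whose genotypes did not overlap made up 0.203% (higher) and 0.338% (lower) in normoxia, and 0.405% and 0.54% after OGD.

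The OGD effect was also compared between the genotypes, by an interaction term over the 20 libraries. None of the 5 entries passed, among 0% of 1481 features, with 74 features at an unadjusted p under 0.05, 0 of them entries described here, and 0 calls by limma voom. For miR-1291 the OGD effect was -0.05 (log2, -0.81 to 0.72) in knockout minus wild type, and a difference within that interval is not excluded. This term ran from -0.26 to 0.13 with libraries left out. With thinning to the shallowest library it was 0.84, above that interval. The term was 0.07 (-0.19 to 0.33) for miR-1839-5p, -0.01 (-0.43 to 0.41) for miR-1839-3p, -0.37 (-1.32 to 0.58) for miR-664-5p and -0.31 (-1.07 to 0.45) for miR-664-3p. The limma adjusted p was 0.99 for each of them. With each library left out in turn, the term ran from 0.03 to 0.14 for miR-1839-5p and from -0.55 (without OGD wild-type replicate 1) to -0.12 (without OGD wild-type replicate 3) for miR-664-5p. For miR-664-3p it ran from -0.45 to -0.08, the latter without normoxic wild-type replicate 5.

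**Figure D4:**
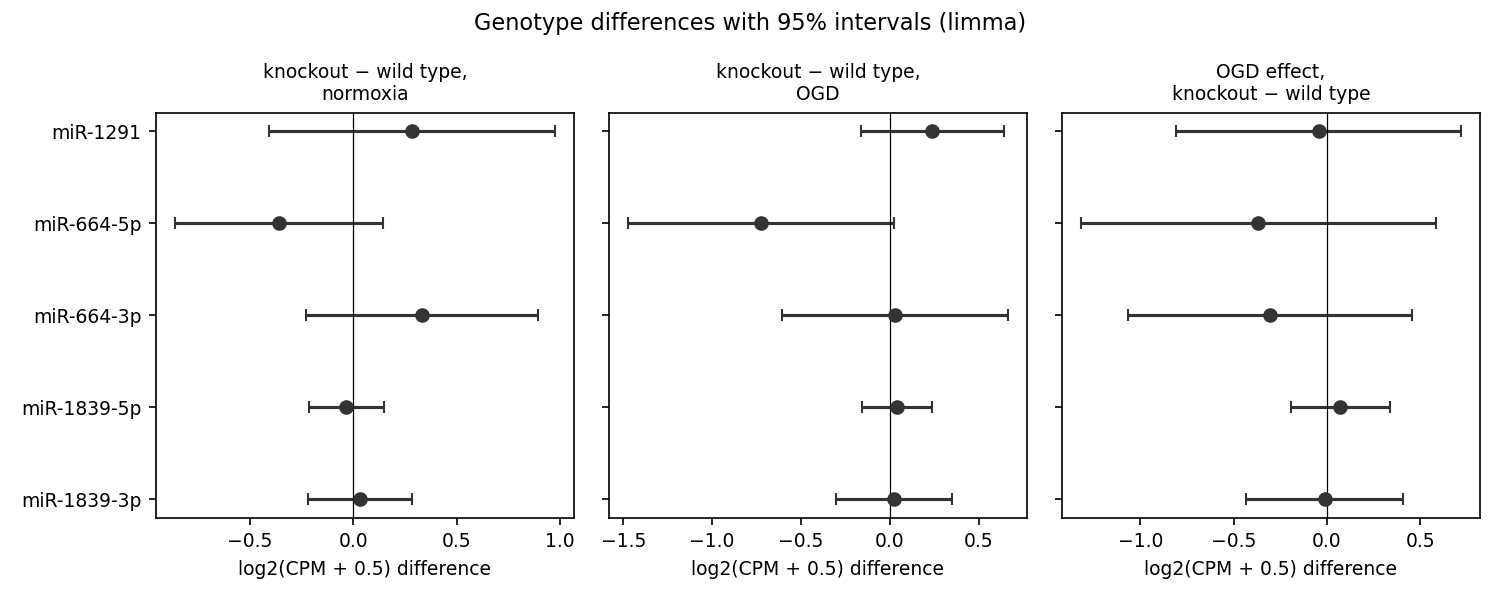
Knockout minus wild type in normoxia and after OGD, and the difference of the OGD effects, in log2(CPM + 0.5), with 95% intervals from limma on 5 libraries a group. All 15 intervals include 0. They are narrow for the miR-1839 arms and wide for miR-664-5p, which reaches from -1.47 to 0.02 after OGD.

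A search of the annotation found 16 further features whose hairpin overlaps a snoRNA or scaRNA gene by at least 1 base on the same strand. After OGD 6 of the 16 rose and 1 fell in wild type (limma, adjusted p under 0.05), and 7 rose and 1 fell in knockout, where 18.7% and 18.8% of all features rose. Their median difference was 0.35 (log2) in wild type and 0.36 in knockout, beside 0.32 and 0.24 over all features. With each library centred on its median, 5 rose and 3 fell in wild type and 5 rose and 2 fell in knockout. Over all features centring gave 7.31% that rose and 266 of 1478 that fell in wild type, and 7.71% and 305 of 1479 in knockout. The 5 that rose by most were miR-3535, miR-5121, miR-677-3p, miR-1949 and miR-677-5p. miR-3535, in the snoRNA gene Gm24148, rose from 198 ± 226 to 3694 ± 887 CPM in wild type (SD, n = 5). miR-5121, in Snord33, rose from 45.8 ± 19.1 to 454 ± 99.1 CPM. The arms of miR-677 rose from 1.44 ± 0.71 to 13.8 ± 7.45 CPM (5p) and from 1.65 ± 2.67 to 10.9 ± 4.63 CPM (3p), and miR-1949 from 0.98 ± 0.61 to 10.1 ± 1.43 CPM. Thus a rise of the size of that of miR-1291 was shared with entries of other snoRNAs, at mean normoxic wild-type levels from 0.98 to 198 CPM. Without normoxic wild-type replicate 5 these means were 97.4 CPM for miR-3535 and 0.46 for miR-677-3p, and the other 3 moved by less than 1.5 times.

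The overlapping entries were also set out by their place in the snoRNA. miR-1949 and miR-1839-3p have no mature sequence in the table and could not be placed. This grouping was made after the values had been seen, and it is a description with no test. Of the 19 overlapping entries with a mature sequence, 4 start within the first 3 bases of their snoRNA, and they are miR-1291, miR-3535, miR-5121 and miR-677-5p. Their OGD differences were 2.80 to 4.69 (log2) in wild type and 2.99 to 4.09 in knockout. The other 15 start at base 47 or later, and among them miR-677-3p, which ends on the last base of its snoRNA, stood at 2.93 and 2.51. The remaining 14, among them the miR-664 arms and miR-1839-5p, ranged from -0.60 to 0.69 in wild type and from -0.58 to 0.49 in knockout. These 14 lie in RNAs of 123 to 275 bases. miR-3535, miR-5121 and both miR-677 arms lie in shorter RNAs, of 72 to 84 bases, and miR-1291 in one of 138 bases. Except for miR-1291, place thus goes together with the length of the RNA, and neither was tested. Centred on the library medians, the 4 entries at a snoRNA start stayed at 2.25 to 4.13 in wild type and 2.50 to 3.60 in knockout, and the 14 at -1.16 to 0.13 and -1.07 to -0.0018. Without normoxic wild-type replicate 5, the wild-type differences were larger for miR-3535 (5.21), miR-5121 (3.56), miR-677-5p (2.99), miR-677-3p (3.51) and miR-1949 (3.12).

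**Figure D5:**
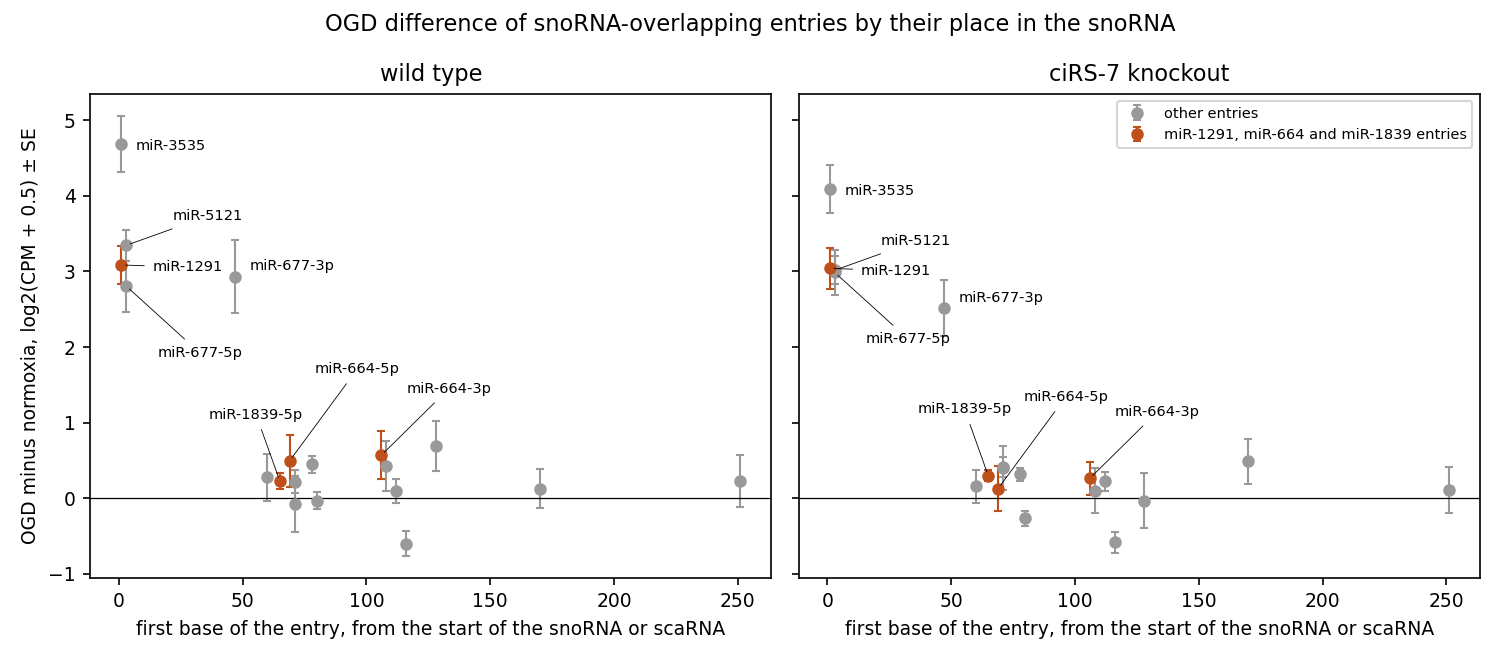
OGD minus normoxia in log2(CPM + 0.5), with its SE, against the first base of each of 19 entries counted from the start of the snoRNA or scaRNA that it overlaps, in wild type and knockout. The 4 entries that start at base 1 or 3 and miR-677-3p lie above 2.5, and the other 14 lie between -0.60 and 0.69. Centring the libraries lowers all points by 0.56 and 0.49, which takes many of the 14 below 0.

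The 3 other entries at the start of a snoRNA are shown for comparison with miR-1291, again with the seed in capitals (RefSeq, GRCm38.p6).
mmu-miR-3535: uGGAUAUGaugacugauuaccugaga
mmu-miR-5121: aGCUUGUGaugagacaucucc
mmu-miR-677-5p: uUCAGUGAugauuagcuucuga
All 3 hold UGAUGA, the core letters of box C, a motif near the 5′ end of C/D snoRNAs, the class that guides 2′-O-methylation. It starts at base 7 of miR-3535 and miR-5121 and at base 6 of miR-677-5p. These letters occur in 0.715% of the 1679 mature entries of the table on the RNA strand, and their reverse complement UCAUCA in 0.357%. miR-1291 does not hold them, and Snora34 is annotated with the name of an H/ACA snoRNA. The 4 entries at a snoRNA start, miR-1291 and these 3, were each higher after OGD.

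Among the entries inside such an RNA, both arms of miR-1843a could be placed, at bases 78 to 98 and 116 to 137 of the scaRNA Scarna3b. Its 5p arm rose by 0.45 (log2, limma adjusted p 0.00688) in wild type and 0.32 (adjusted p 0.0114) in knockout, but stood at -0.11 and -0.17 relative to the centring shift. Its 3p arm fell by 0.60 (adjusted p 0.0108) and by 0.58 (adjusted p 0.00487), and stood at -1.16 and -1.07 relative to the centring shift. So the 3p arm moved down in miR-1843a and was higher in miR-1839 after OGD. miR-3068-5p rose in knockout by 0.41 (limma adjusted p 0.0328), but relative to the centring shift it stood at -0.08 (adjusted p 0.736), so its direction turned and the call was lost. The other entries of this kind (miR-1843b-5p, miR-3068-3p, miR-3069-3p, both arms of miR-3084 and of miR-6516, and miR-7650-5p) did not pass in either genotype on the uncentred scale. With centring, miR-1843b-5p fell by 0.59 in wild type (limma adjusted p 0.000648) and by 0.75 in knockout (adjusted p 2.8e-05), and miR-3068-3p fell by 0.46 in wild type (adjusted p 0.0339). miR-6516 and miR-7650 had fewer than 10 reads in every library.

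A list of 6 further miRNAs whose precursors have been described with H/ACA features held the arms of miR-140, miR-151 and miR-215. In wild type 1 of them rose and 0 fell, where 18.7% of all features rose and 4.4% fell. In knockout 2 rose and 1 fell, where 18.8% rose and 5.75% fell. The medians of the 6 were 0.37 and 0.21 (log2), beside 0.32 and 0.24 over all features. The riser in either genotype was miR-140-3p, a miRNA of cartilage that is also made in brain, from 317 ± 25.5 to 669 ± 105 CPM in wild type, with a difference of 1.07 (limma adjusted p 1.9e-06) and of 1.01 in knockout. With centring these were 0.51 and 0.52. In knockout, miR-215-5p also rose, by 0.87 (limma adjusted p 0.0261), a call lost with centring (0.38, adjusted p 0.324), and miR-151-3p fell by 0.33. With centring 1 of the 6 rose and 2 fell in each genotype. A list of 9 miRNAs made without Drosha or DGCR8 by other routes (the arms of miR-320, miR-877, miR-1224 and miR-702, and miR-484) had 1 rise in wild type, of miR-877-5p by 0.64 (adjusted p 0.0315), and 4 in knockout, beside the same shares of all features, with medians of 0.24 and 0.26. Centred on the library medians, 0 of these 9 rose and 2 fell in each genotype, beside the 266 of 1478 and 305 of 1479 features that fell on that scale. Without normoxic wild-type replicate 5, 2 of the 9 rose and 1 fell in wild type, where 18.4% of all features rose and 4.67% fell. On the uncentred scale no feature of these 2 lists that passed differed by more than 1.07. With centring miR-702-5p passed as lower, at -1.50 in wild type (limma adjusted p 0.00711) and -0.94 in knockout (adjusted p 0.0452). It held at most 10 reads in a library, and its mean in OGD wild type, 0.16 CPM, lay below the floor of 3 reads. In the comparisons of the genotypes 0 of the 16, the 6 and the 9 features passed, where 0% of all 1481 features did.

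The features most like each entry were found by Pearson's r of log2(CPM + 0.5) over the 20 libraries, among 423 features with a mean of at least 3. The libraries share their treatment and depth, so r is a description. miR-1291 was most like miR-5121 (r = 0.968), miR-324-5p (0.967) and miR-3535 (0.958). With the group means subtracted, which removes the OGD difference, the nearest were miR-7667-5p (0.571), miR-3535 (0.558) and miR-574-5p (0.554). miR-1839-3p was most like miR-181a-5p (0.963), miR-181d-5p (0.956) and miR-23a-3p (0.951), and with group means subtracted like let-7j (0.831), miR-181a-5p (0.808) and miR-181d-5p (0.802). miR-1839-5p was most like miR-363-3p (0.856), miR-503-5p (0.852) and miR-669p-5p (0.841), and with group means subtracted like miR-363-3p (0.745), miR-34c-5p (0.730) and miR-27b-3p (0.683). miR-664-3p was most like miR-301a-3p (0.790), miR-194-5p (0.776) and miR-532-3p (0.747), and with group means subtracted like miR-379-3p (0.830), miR-194-5p (0.755) and let-7e-3p (0.731). miR-664-5p was most like miR-673-5p (0.677), miR-330-5p (0.543) and miR-1969 (0.486), and with group means subtracted like miR-222-3p (0.709), miR-138-5p (0.627) and miR-139-3p (0.602).

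Arms of 1 precursor did not always move together. Over the 20 libraries r was 0.835 between the miR-1839 arms (0.577 with group means subtracted) and -0.09 between the miR-664 arms (-0.22), whose counts were as low as 3 reads. Between miR-1291 and miR-1839-3p it was 0.912, and 0.396 with group means subtracted.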

How the data were processed

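Libraries were size-selected after preparation with a NEBNext small RNA kit from TRIzol RNA, per the labels' protocols. The authors deposited 6 tables, 1 for each pair of groups, whose values are a score; the build is mm10, per the submitters' processing notes, and the aligner, the counter and the handling of reads shared with snoRNAs are not given in the sources used here. The deposited score lies above any possible log2 CPM. From its values alone, it was found to be reads times a library factor, raised to a power, with the extremes of each group of 5 limited at the quantiles 0.16 and 0.84. Undoing this gave whole reads (within 0.05) for 100% of values, the same in all tables (59070 comparisons, 0 differences). CPM used the library factors, 0.923 to 1.08 times the total reads.

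Limma (3.58.1, R 4.3.3; lmFit and eBayes with trend) was fitted to log2(CPM + 0.5) of all features of a table, or of 20 libraries for the interaction, two-sided, with Benjamini-Hochberg adjustment and a threshold of 0.05. The scripts were tested on simulated data. The members and the lists were chosen with earlier results of these data known. Named were all members, the 3 features most like each, and list features past the threshold, at most 6 per list by size. The other features that overlap a snoRNA were named after their values had been seen. Reads are not independent molecules, so intervals and floors cover counting error only.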

Additional observations from a re-analysis of the deposited data

How the results depend on the processing

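In the comparisons of the genotypes and in the interaction, 0 entries passed under every alternative run (pseudocount, filter, centring, quantile normalization, deposited values, thinning, voom, 1 fit of all libraries, replicate block and each library left out). The count of entries past the threshold after OGD was 1 in wild type with quantile normalization and with thinning to 1160582 reads, and 1 in knockout with centring and with quantile normalization. On the deposited score 3 entries passed in wild type, with miR-1839-5p added. Of all features, 341 were called in wild type and 363 in knockout, 374 and 419 with centring, 332 and 327 with quantile normalization, 254 and 238 with thinning, 477 and 476 on the deposited score, and 693 and 784 with voom. Knockout minus wild type of the miR-1839 arm ratio among OGD libraries (0.02) was -0.041 with thinning and -0.067 to 0.058 when each library was left out. Differences near 0 changed sign, and the cause was not tested. For miR-1839-3p, knockout minus wild type in normoxia was -0.0024 with centring and -0.016 with quantile normalization, and -0.016 to 0.091 with libraries left out. In normoxia, thinning gave -0.60 for miR-1291 and 0.016 for miR-1839-5p. After OGD, quantile normalization gave -0.035 for miR-1839-5p, and miR-664-3p was -0.015 on the deposited score and -0.21 with thinning; with libraries left out the values ran from -0.0072 to 0.10 for miR-1839-5p, -0.12 to 0.13 for miR-664-3p and -0.054 to 0.12 for miR-1839-3p. The OGD difference of miR-1839-5p in knockout was -0.19 with centring. The interaction of miR-1291 was 0.037 with a pseudocount of 2 CPM, 0.024 with centring, 0.060 with quantile normalization, 0.84 with thinning and -0.26 to 0.13 with libraries left out. That of miR-1839-3p was 0.058, 0.059 and 5.3e-05 with centring, quantile normalization and voom, and -0.086 to 0.090 with libraries left out. With the replicate number as a block, 3 entries passed after OGD in wild type and 3 in knockout, and 0 in the other comparisons. Over all features the block gave 26.3% of 1478 called after OGD in wild type and 27.2% of 1479 in knockout. The added entry in wild type was miR-1839-5p. Between same-numbered OGD and normoxic libraries r was -0.17 to 0.66 in wild type, where 4 of 5 numbers matched best with their own, and -0.21 to 0.49 in knockout, where 3 of 5 did. Since not every pair lay over 0.1, the numbers were not taken as a pairing. Normoxic libraries held 7 to 33 reads of miR-1291 and as few as 3 of miR-664-3p, which limits the precision of these values.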
